A study of Mus musculus with 4 samples.

Results

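Arrdc2 and its 4 relatives Arrdc1, Arrdc3, Arrdc4 and Txnip make up the alpha-arrestin genes described here, 5 of the 22252 gene names counted in mouse gastrocnemius muscle, a fast calf muscle. Arrdc2 was chosen from its change between genotypes in these same libraries, and the other 4 genes were chosen by name as members of its family. The genotype changes of Arrdc2 are therefore given as a description, and they support nothing beyond themselves. The design asked how the glucocorticoid receptor (GR, encoded by Nr3c1) of muscle shapes gene expression in lean and in obese mice. The 4 groups of 7-week-old male C57BL/6J mice were named lean GRf/f, lean GRmKO, ob/ob GRf/f and ob/ob GRmKO. All 4 groups were GR Flox+/+, with exon 3 of both Nr3c1 alleles flanked by loxP sites. The GRf/f groups were Cre-/- and the GRmKO groups Cre+/-. Lean mice were Lep+/+ and obese mice Lepob/ob. Cre in GRmKO mice was driven by the Acta1 promoter, which is active in myofibers, and the study describes the deletion as specific to myofibers. GR in the blood, vessel, nerve, fat and connective tissue cells of the muscle was not measured here. Lepob/ob mice lack leptin, which makes them eat more and become obese. Each group is 1 library of RNA pooled from 3 mice, so no difference between groups could be set against the variation between mice and no p-value is given.

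Alpha-arrestins share the arrestin fold with the beta-arrestins, which bind activated receptors. Their tails carry PPxY motifs that recruit ubiquitin ligases of the NEDD4 family, and through them membrane proteins are ubiquitinated, internalized and sorted. The best known member, TXNIP, binds thioredoxin and lowers glucose uptake by driving the glucose transporters GLUT1 and GLUT4 from the cell surface, which makes it a brake on glucose use in muscle. Txnip and Arrdc4 are induced by glucose through the transcription factors MondoA and ChREBP. ARRDC3 acts in the trafficking of membrane receptors, ARRDC1 in the budding of extracellular vesicles from the plasma membrane, and the function of ARRDC2 is less well characterized. GR is a transcription factor that binds glucocorticoids and regulates genes in muscle during stress and fasting.

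On GRCm38 with the GENCODE annotation, Arrdc2 (ENSMUSG00000002910.11) lies on the minus strand at chr8:70835129-70839720, a span of 4592 bp. Arrdc1 (ENSMUSG00000026972.15) lies on the minus strand at chr2:24925352-24935252, Arrdc3 (ENSMUSG00000074794.10) on the plus strand at chr13:80883384-80896042, Arrdc4 (ENSMUSG00000042659.15) on the minus strand at chr7:68736995-68749241 and Txnip (ENSMUSG00000038393.14) on the plus strand at chr3:96557957-96561883. The transcript listed for each of the 5 genes has 8 exons, and the coding sequences are close in length, from 397 codons in Txnip to 434 in Arrdc1, with 407 in Arrdc2. The nearest protein-coding gene to Arrdc2 is Kcnn1, 2328 bp away on the same strand. Txnip is overlapped over its whole span of 3927 bp by the antisense gene Gm15441, and 1301 bp of Arrdc3 are overlapped by 1700023H06Rik on the opposite strand. Reads were assigned to protein-coding transcripts, and whether strand was used is not given in the sources used here, so reads of these partners could not be told apart from those of Txnip and Arrdc3.

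The 250 bases upstream of the RefSeq start are shown for the gene with the large genotype change and for the pair of relatives known as glucose-responsive, so that their short motifs can be set side by side. The 3 stretches are read 5′ to 3′ on the strand of the gene, with motif matches in capitals (GRCm38.p6, from RefSeq). The Arrdc2 stretch is at chr8:70839721-70839970 on the minus strand, that of Txnip at chr3:96557707-96557956 on the plus strand, and that of Arrdc4 at chr7:68749239-68749488 on the minus strand.
Arrdc2: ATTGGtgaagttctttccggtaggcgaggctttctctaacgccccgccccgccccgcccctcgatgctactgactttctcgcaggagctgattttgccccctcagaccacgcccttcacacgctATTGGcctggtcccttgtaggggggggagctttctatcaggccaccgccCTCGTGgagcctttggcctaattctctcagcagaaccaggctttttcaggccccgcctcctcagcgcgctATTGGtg
Txnip: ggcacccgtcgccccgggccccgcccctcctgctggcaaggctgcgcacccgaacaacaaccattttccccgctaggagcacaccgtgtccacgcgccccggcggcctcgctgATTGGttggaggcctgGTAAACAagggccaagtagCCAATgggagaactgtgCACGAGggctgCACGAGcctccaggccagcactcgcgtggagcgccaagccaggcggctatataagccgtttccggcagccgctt
Arrdc4: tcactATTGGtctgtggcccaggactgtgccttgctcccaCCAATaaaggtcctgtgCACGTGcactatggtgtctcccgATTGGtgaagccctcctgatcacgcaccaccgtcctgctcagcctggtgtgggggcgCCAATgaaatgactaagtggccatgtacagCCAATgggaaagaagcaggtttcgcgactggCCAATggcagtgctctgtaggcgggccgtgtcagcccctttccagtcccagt

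These motifs were chosen after the sequences had been seen, and 5 were searched on both strands in the full windows, which reach 50 bases past the start, of all 5 genes and of 32851 RefSeq starts in all. The letters AGAACA, the core of the GR binding site, occurred in 19.0% of all windows and in no window of the 5 genes. CCAAT, bound by NF-Y, occurred in 37.4% of all windows, and 11.7% held it more than once. Arrdc2 held it 3 times (as ATTGG at -250, -126 and -7), Arrdc4 held it 6 times, Txnip held it at -137 and -102, and Arrdc3 held it once. GTAAACA, a site for FoxO factors, was found in 3.65% of windows and among the 5 genes only in that of Txnip, at -121. The E-box CACGTG was found in 7.15% of windows and among the 5 genes only in that of Arrdc4, at -193. The variant CACGAG was found in 6.47% of windows, in Txnip at -85 and -74, in Arrdc2 at -77 on the other strand and in Arrdc1 at -158 and -118 on the other strand. The paired hexamers of Txnip, 5 bases apart, have the layout of the carbohydrate response element bound by MondoA and ChREBP. Only pairs of CACGAG or CACGTG in the same direction were searched, and 4 of the 32851 windows (0.0122%) held such a pair. Pairs of CACGAG in opposite directions were not searched, so the share is of this narrower pattern. The Txnip sequence had been seen before the pattern was chosen. Among the 5 genes only Txnip held it, and the window of Arrdc4, the other gene known as glucose-responsive, did not. A match is a description of letters, not of a bound site, and a window without a match says nothing of sites elsewhere.

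Expected counts summed to between 19897754 and 20959781 per library, with 45.4% to 48.4% of them in the top 50 genes. Levels are given as CPM, each gene's count scaled to a common total over the 14206 gene names with counts above 0 in all 4 libraries, and 3 counts amount to 0.143 to 0.151 CPM. Changes were compared over the 13042 of these genes with a mean of at least 10 expected counts, and all 5 alpha-arrestin genes were among them. Intervals after a level are exact 95% Poisson intervals, those after a change are exact 95% (Clopper-Pearson) intervals of the ratio of 2 counts, and both cover counting error only. They treat the rounded expected counts as read counts and leave out the uncertainty of assigning reads to genes. Nr3c1, the deleted gene, was at 125 CPM in lean GRf/f, 67.1 in lean GRmKO, 102 in ob/ob GRf/f and 39.2 in ob/ob GRmKO muscle. It was lower in the GRmKO library of both backgrounds, as the labels have it, with log2 changes of -0.90 and -1.38, and its count covers the whole gene rather than the deleted exon alone. The 9 markers of fast muscle fibers, which define this muscle, summed to between 123579 and 148254 CPM. The sum does not show changes of single markers. In ob/ob against lean mice these ran from -0.41 to 1.08 in GRf/f and from -0.33 to 1.76 in GRmKO muscle on the log2 scale. In whole tissue, fewer cells of a type and less RNA per cell cannot be told apart.

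**Figure D1:**
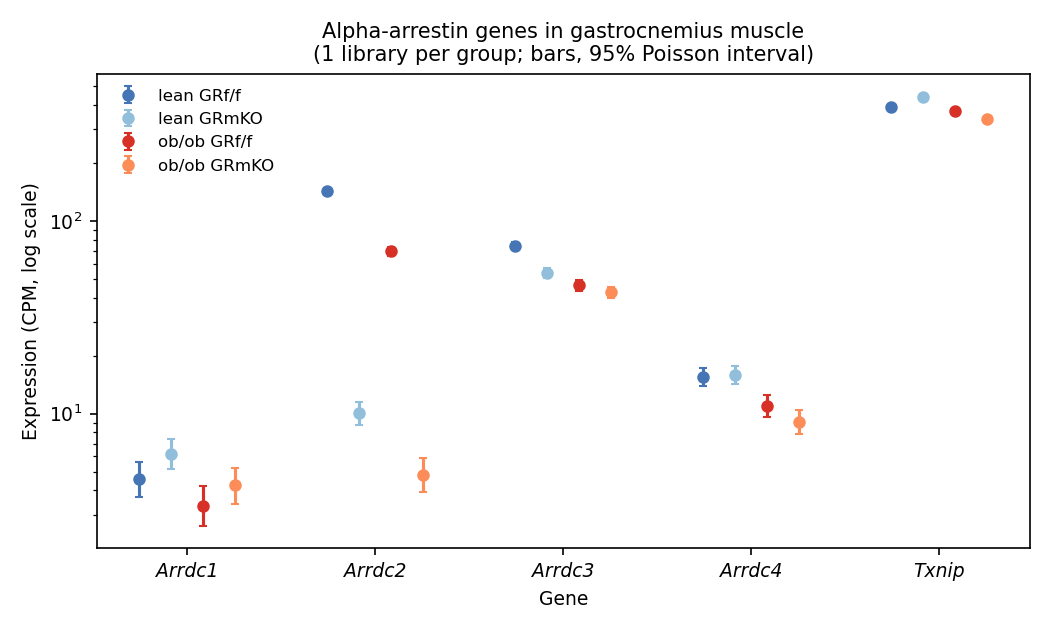
Level of the 5 alpha-arrestin genes in CPM (vertical axis, log scale) in the 4 libraries, with bars for the exact 95% Poisson interval, which covers counting error only. Arrdc2 lies at 143 and 69.4 CPM in the GRf/f libraries and at 10.05 and 4.81 CPM in the GRmKO libraries, while each other gene stays within a log2 range of 0.90.

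Arrdc2 was at 143 CPM (95% interval, 138 to 148) in lean GRf/f, 10.05 (8.72 to 11.6) in lean GRmKO, 69.4 (65.9 to 73.1) in ob/ob GRf/f and 4.81 (3.93 to 5.87) in ob/ob GRmKO muscle. Both GRf/f libraries were above both GRmKO libraries, and within each genotype the lean library was the higher one, with no overlap between any 2 of the 4 intervals. These levels rest on 2957, 199.6, 1453 and 100.7 expected counts in the same order. How many other genes had 4 separate intervals was not counted. Ranked by CPM, which is not corrected for gene length, Arrdc2 was in place 818 of the 14206 gene names in lean GRf/f and 1675 in ob/ob GRf/f muscle, and in places 8024 and 9501 in the GRmKO libraries. Its range over the 4 libraries was 4.89 on the log2 scale, and 0.0843% of the tested genes had a larger one.

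Txnip, the thioredoxin-binding member, was at 390.1 CPM (382 to 399) in lean GRf/f, 440.3 (431 to 449.6) in lean GRmKO, 373 (365 to 382) in ob/ob GRf/f and 338 (329.7 to 345) in ob/ob GRmKO muscle. Its range was the smallest of the 5 genes at 0.38 on the log2 scale, with 70.4% of tested genes showing a larger one. None of the 4 intervals overlapped, although those of the GRf/f libraries were nearly adjacent, and the 2 GRmKO libraries were the highest and the lowest. With 7062 to 8747 expected counts per library these intervals are narrow, so small differences suffice to separate them.

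Arrdc3, linked to receptor trafficking, was at 74.0 CPM (70.4 to 77.9) in lean GRf/f, 53.6 (50.4 to 56.9) in lean GRmKO, 46.3 (43.4 to 49.3) in ob/ob GRf/f and 42.7 (39.9 to 45.6) in ob/ob GRmKO muscle. The lean GRf/f library was the highest, and the intervals of the 2 ob/ob libraries overlapped. Arrdc4, the other glucose-responsive gene, was at 15.5 CPM (13.8 to 17.3) in lean GRf/f, 15.9 (14.2 to 17.8) in lean GRmKO, 10.9 (9.57 to 12.5) in ob/ob GRf/f and 9.08 (7.84 to 10.5) in ob/ob GRmKO muscle. Both lean libraries were above both ob/ob libraries, and the intervals overlapped between genotypes in each background. Arrdc1, the vesicle-budding member, was at 4.57 CPM (3.71 to 5.61) in lean GRf/f, 6.21 (5.15 to 7.39) in lean GRmKO, 3.32 (2.61 to 4.23) in ob/ob GRf/f and 4.26 (3.42 to 5.23) in ob/ob GRmKO muscle. The intervals of Arrdc1 overlapped for every pair of libraries except the highest, lean GRmKO, and the lowest, ob/ob GRf/f.

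With deletion of GR in muscle, Arrdc2 was 14.2-fold lower in lean mice (95% interval, 12.3 to 16.4) and 14.4-fold lower in ob/ob mice (11.7 to 17.8). On the log2 scale the changes were -3.83 (-4.04 to -3.62) and -3.85 (-4.15 to -3.55). Of the 13042 tested genes, 2.16% were at least 2-fold lower in lean GRmKO muscle and 3.51% in ob/ob GRmKO muscle, and Arrdc2 was the only alpha-arrestin among them in either background. Arrdc2 took place 8 from the lowest change in lean and place 5 in ob/ob mice. At least 2-fold lower levels in both backgrounds were seen in 64 genes, and ranked by the smaller of its differences Arrdc2 stood in place 1 of them. Since Arrdc2 was chosen from this contrast, nothing is read from these places.

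Arrdc3 differed by -0.47 on the log2 scale (-0.58 to -0.35) in lean GRmKO muscle and by -0.12 (-0.25 to 0.02) in ob/ob GRmKO muscle. Its level was thus lower beyond counting error in lean mice, and in ob/ob mice the interval included 0. Arrdc1 differed by 0.44 (0.04 to 0.83) in lean and 0.36 (-0.12 to 0.82) in ob/ob mice, higher in both GRmKO libraries, with 0 inside the interval of the second. Txnip differed by 0.17 (0.13 to 0.22) in lean mice and by -0.14 (-0.19 to -0.10) in ob/ob mice, so that it was higher in GRmKO muscle in one background and lower in the other. Arrdc4 differed by 0.04 (-0.19 to 0.27) and -0.27 (-0.55 to 0.02), and both intervals included 0. The median change of all tested genes was 0.05 in lean and -0.04 in ob/ob mice, so that Txnip lay 0.13 above and -0.10 from the median gene in the respective background. Changes as large as that of Txnip in either direction were found in 50.3% of genes in lean and 64.4% in ob/ob mice.

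**Figure D2:**
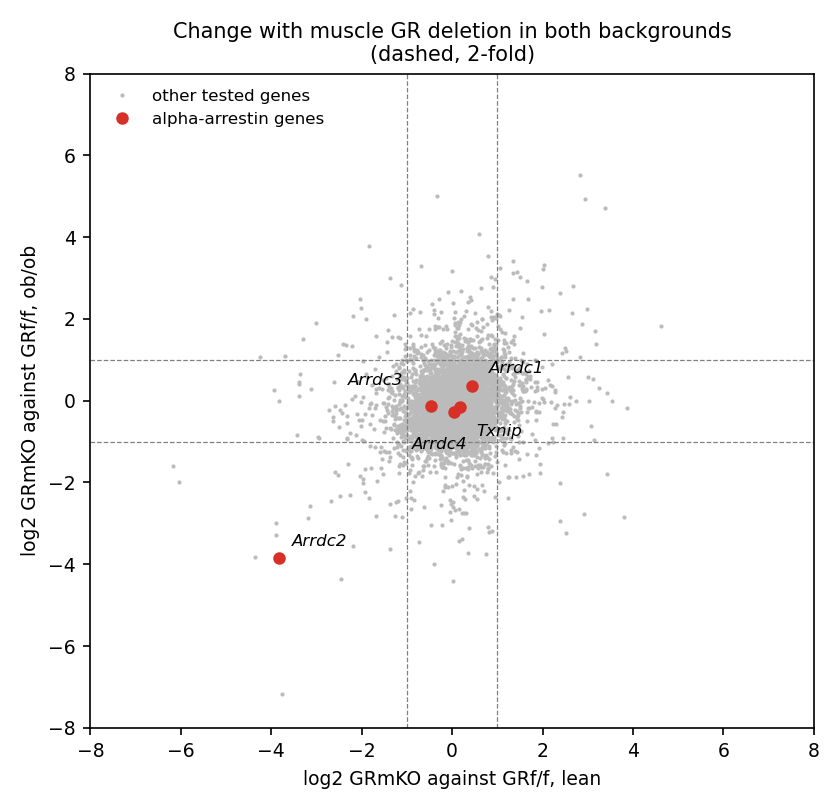
Change with muscle GR deletion in lean (horizontal axis) and ob/ob mice (vertical axis), as the log2 ratio of CPM in GRmKO to GRf/f muscle, for the 13042 tested genes (gray) and the 5 alpha-arrestin genes (red), with dashed lines at 2-fold. Arrdc2 is far down the diagonal at -3.83 and -3.85, and the other 4 genes lie inside the 2-fold lines on both axes.

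In ob/ob mice against lean mice, Arrdc2 was 2.06-fold lower in GRf/f muscle (1.93 to 2.19) and 2.09-fold lower in GRmKO muscle (1.63 to 2.68), or -1.04 (-1.13 to -0.95) and -1.06 (-1.42 to -0.71) on the log2 scale. At least 2-fold lower levels were shown by 4.96% of tested genes in GRf/f and 9.29% in GRmKO muscle, and among the 5 alpha-arrestins by Arrdc2 alone in both. The median gene was itself at -0.11 and -0.21, and Arrdc2 lay -0.93 and -0.85 from it. With the scaling factors of TMM or DESeq2, which bring the median gene to within 0.01 of 0, the changes of Arrdc2 were -0.93 and -0.92 in GRf/f and -0.86 and -0.85 in GRmKO muscle, short of 2-fold in both. The same scaling moved the share of lower genes among all those past 2-fold from 65.6% to 54.5% with TMM in GRf/f and from 79.6% to 60.6% in GRmKO muscle. Changes as large as that of Arrdc2 in either direction were found in 6.92% and 10.2% of genes.

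Arrdc3 differed between ob/ob and lean mice by -0.68 (-0.80 to -0.56) in GRf/f and by -0.33 (-0.46 to -0.20) in GRmKO muscle. Arrdc4 differed by -0.50 (-0.75 to -0.25) in GRf/f and by -0.81 (-1.08 to -0.54) in GRmKO mice. Both genes were below the median gene in each genotype, Arrdc3 at -0.56 and -0.12 from it and Arrdc4 at -0.39 and -0.60. Arrdc1 differed by -0.46 (-0.92 to 0.01) in GRf/f and by -0.54 (-0.95 to -0.14) in GRmKO mice. Txnip differed by -0.06 (-0.11 to -0.02) in GRf/f and by -0.38 (-0.43 to -0.34) in GRmKO mice. With DESeq2 factors the GRmKO values were nearer to 0, at -0.11 for Arrdc3, -0.33 for Arrdc1 and -0.17 for Txnip. All 5 genes were thus lower in the ob/ob library of both genotypes as CPM, except that Txnip in GRf/f mice was at 0.04 with TMM and 0.05 with DESeq2 factors, and over all tested genes 8105 and 8839 of 13042 were lower.

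**Figure D3:**
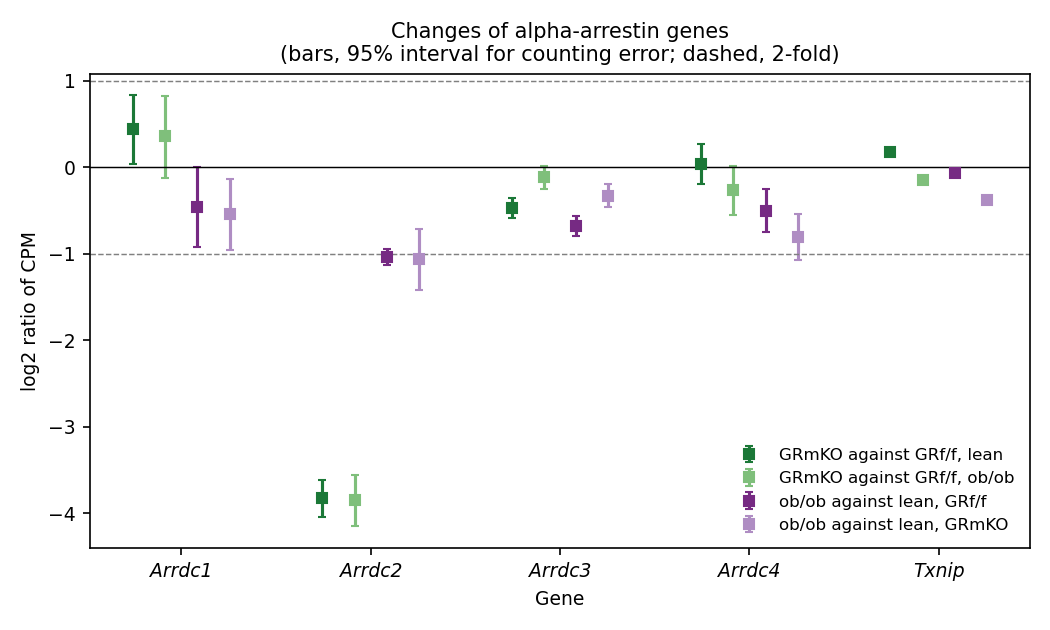
Log2 ratio of CPM for each alpha-arrestin gene in the 4 comparisons, with bars for the exact 95% interval, which covers counting error only, and dashed lines at 2-fold. The genotype changes of Arrdc2 (-3.83 and -3.85) lie near each other and far below its obesity changes (-1.04 and -1.06), while Txnip is above 0 in lean (0.17) and below 0 in ob/ob mice (-0.14).

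The genotype change in ob/ob mice minus that in lean mice was -0.02 for Arrdc2, with an approximate counting interval of -0.38 to 0.33. The 2 genotype changes of Arrdc2 therefore differed by less than the counting error, and a difference of up to 0.38 on the log2 scale (-0.38) lies within the interval. It was 0.35 (0.18 to 0.52) for Arrdc3, which was lower by more in lean mice, and -0.32 (-0.38 to -0.26) for Txnip. For Arrdc4 it was -0.30 (-0.66 to 0.05) and for Arrdc1 -0.08 (-0.68 to 0.51), both with 0 in the interval. These differences and their intervals are of CPM values, and the size of a difference changes with the scaling. With 1 library per group, an interaction of genotype and obesity could not be tested. Each library enters 2 of the 4 comparisons, so that their values are not independent.

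To compare levels between genes, CPM was divided by the length of the listed transcript in kb. On this scale Txnip had the highest level in every library, at 138, 156, 132 and 119 CPM per kb in lean GRf/f, lean GRmKO, ob/ob GRf/f and ob/ob GRmKO muscle. Arrdc2 was at 60.6, 4.27, 29.5 and 2.04 CPM per kb in the same order. It was thus second to Txnip in both GRf/f libraries, behind Txnip and Arrdc3 in lean GRmKO and last of the 5 in ob/ob GRmKO muscle. Arrdc3 was at 18.1, 13.1, 11.3 and 10.4 CPM per kb, Arrdc4 at 3.97, 4.07, 2.80 and 2.33, and Arrdc1 at 2.74, 3.73, 1.99 and 2.56. In each GRmKO library the intervals of Arrdc2, Arrdc4 and Arrdc1 overlapped on this scale, as did those of Arrdc4 and Arrdc1 in ob/ob GRf/f muscle, so the order of these genes is not resolved there.

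The 5 genes together had 223 CPM per kb in lean GRf/f, 181 in lean GRmKO, 178 in ob/ob GRf/f and 137 in ob/ob GRmKO muscle. Arrdc2 made up 27.1% of this sum in lean GRf/f and 16.6% in ob/ob GRf/f muscle, against 2.36% and 1.49% in the GRmKO libraries. Without Arrdc2 the sums were 163, 177, 148 and 135 CPM per kb, so that in lean mice the sum of the other 4 genes was higher in the GRmKO library, while in ob/ob mice it was lower. Txnip made up most of each of these sums. In lean mice Arrdc3 went the other way, from 18.1 to 13.1 CPM per kb. The level of Txnip per kb exceeded that of Arrdc2 2.28-fold in lean GRf/f and 4.48-fold in ob/ob GRf/f muscle, against 36.5-fold and 58.4-fold in GRmKO muscle. The share of Txnip in the sum was 61.8% in lean GRf/f and 86.1% in lean GRmKO muscle, and 74.3% and 87.3% in the respective ob/ob libraries. These ratios and shares change with Arrdc2, which was chosen for its genotype change. Txnip itself went from 138 to 156 CPM per kb in lean mice and from 132 to 119 in ob/ob mice.

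**Figure D4:**
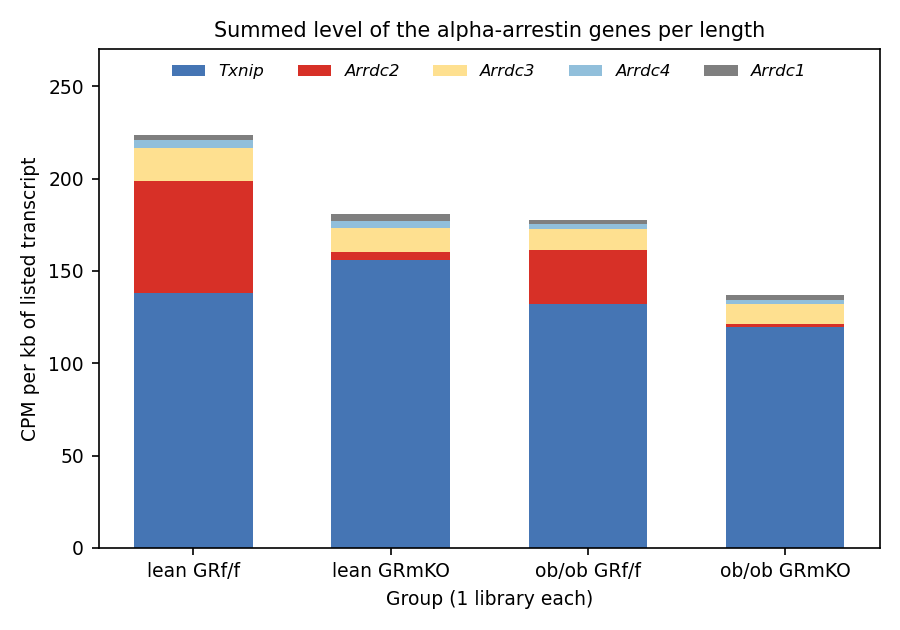
Stacked levels of the 5 alpha-arrestin genes in CPM per kb of listed transcript (vertical axis, from 0) in each library. Txnip forms most of every column, and the Arrdc2 segment shrinks from 27.1% to 2.36% of the sum in lean and from 16.6% to 1.49% in ob/ob mice.

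Genes that work with the family were read as lists, whose medians of genotype changes stand beside those of all tested genes, 0.05 in lean and -0.04 in ob/ob mice. Past 2-fold in either direction between genotypes were 4.79% of all tested genes in lean and 6.24% in ob/ob mice. In lists this short, none past 2-fold is near that share. Of the arrestin-fold relatives, 5 of 8 were tested and none was past 2-fold between genotypes, with medians of 0.10 in lean mice and 0.04 in ob/ob mice. Arrb1, which encodes beta-arrestin 1, was at 37.0, 47.0, 36.6 and 37.6 CPM in lean GRf/f, lean GRmKO, ob/ob GRf/f and ob/ob GRmKO muscle, with changes of 0.35 and 0.04. Arrb2, which encodes beta-arrestin 2, differed by 0.10 and -0.55. The further alpha-arrestin Arrdc5 was too low to be tested, with 12 and 3.01 expected counts in the lean and ob/ob GRf/f libraries and 0 in both GRmKO libraries.

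Of the 11 NEDD4-family ligases and adaptors, 10 were tested and none was past 2-fold between genotypes, with medians of 0.01 and -0.06. Nedd4, a ligase recruited by PPxY motifs, was at 536, 548, 571 and 528 CPM and differed by 0.03 and -0.11. Itch, another ligase of this family, was at 33.3, 27.2, 26.7 and 23.3 CPM and differed by -0.29 and -0.19. Of the 13 partners and cargo genes, all were tested and none was past 2-fold between genotypes, with medians of 0.00 and -0.06. For 10 and 13 genes, none is near the 4.79% and 6.24% of all tested genes past 2-fold in lean and ob/ob mice. Txn1, the thioredoxin bound by TXNIP, was at 64.8, 64.5, 39.3 and 40.6 CPM. It differed little between genotypes (-0.01 and 0.05) and was lower in both ob/ob libraries (-0.72 and -0.67). Slc2a4, which encodes the insulin-responsive transporter GLUT4, differed by -0.33 and -0.44 between genotypes, and Slc2a1, which encodes GLUT1, by 0.43 and -0.31, a positive value in lean and a negative one in ob/ob mice.

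Of 9 transcription factors known to act on family members, Nr3c1 was the only gene past 2-fold between genotypes, in ob/ob mice, and the medians were -0.21 and -0.23. Foxo1, an atrophy-linked factor, was at 66.9, 38.7, 58.9 and 33.2 CPM and differed by -0.79 in lean and -0.83 in ob/ob mice, lower in both GRmKO libraries. Mlxip, which encodes MondoA, differed by -0.21 and 0.14 between genotypes, and in ob/ob against lean mice by 0.70 in GRf/f and 1.06 in GRmKO muscle. Mlx, the dimer partner of MondoA, was at 8.51, 7.02, 7.93 and 6.74 CPM, with the lower value in the GRmKO library of each background.

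Of 23 genes known to be induced by glucocorticoids, 7 were at least 2-fold lower and none was higher in lean GRmKO muscle, and 2 were lower and 1 was higher in ob/ob GRmKO muscle, with medians of -0.50 and -0.19. Over all tested genes, 2.16% and 3.51% were lower to this extent in lean and ob/ob mice, and 2.63% and 2.73% were higher. Of the 23 genes the lowest values in both backgrounds were those of Fkbp5, an FKBP immunophilin that restrains GR, at -1.96 and -2.02, from 89.0 to 22.9 CPM in lean and from 106 to 26.1 CPM in ob/ob mice. The difference of Arrdc2 was larger than that of each of the 23 genes in both backgrounds, and Arrdc2 was chosen from this contrast. In lean mice the others past 2-fold were the clock gene Per1 (-1.36), the mTORC1 inhibitor Ddit4 (-1.33), Hif3a (-1.27), the transcription factor Zbtb16 (-1.20), the glutamine synthetase gene Glul (-1.13) and Cebpb (-1.09). In ob/ob mice Hif3a was at -1.15, and Pdk4, an inhibitor of pyruvate oxidation, was at 1.10.

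**Figure D5:**
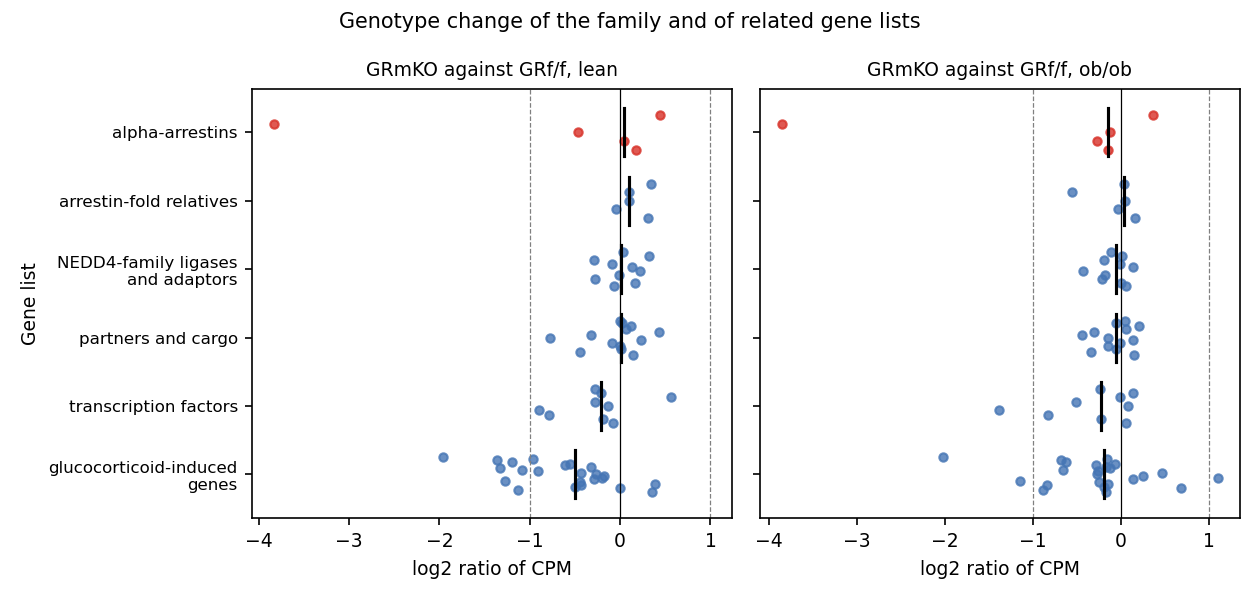
Log2 ratio of CPM in GRmKO to GRf/f muscle (horizontal axis) for each tested gene of the alpha-arrestin family (red) and of 5 related lists (blue), with black bars for medians and dashed lines at 2-fold. Arrdc2 lies left of every other point in both panels, and the glucocorticoid-induced genes have medians of -0.50 in lean mice and -0.19 in ob/ob mice.

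Markers of other cell types moved between the same libraries. The 6 adipocyte markers were lower in GRmKO muscle in both backgrounds, with medians of -0.87 and -0.77, and their summed level was 977, 632, 564 and 348 CPM in lean GRf/f, lean GRmKO, ob/ob GRf/f and ob/ob GRmKO muscle. Past 2-fold between genotypes among them were the differences of Cidec (-1.39 and -1.47), which encodes a lipid droplet protein, and of the leptin gene Lep in lean mice (-1.27). The sum does not show single markers between ob/ob and lean mice. In GRf/f muscle these ran from -4.21 (Cfd) to 2.30 (Lep), with 5 lower, 1 higher and a median of -0.50. Adipoq, Plin1 and Cidec had the same order of the 4 libraries as Arrdc2, and Fabp4, Lep and Cfd had other orders. Adipoq and Plin1 are named after their values were seen, as are Fabp4 and Cfd. The 6 slow fiber markers summed to 350, 480, 824 and 1245 CPM, with Atp2a2, a calcium pump gene, past 2-fold between the ob/ob genotypes (1.12). They had medians of 1.37 and 1.45 in ob/ob against lean mice, where the 5 erythroid markers were all at least 2-fold lower, with medians of -1.23 and -1.24. The macrophage and leukocyte markers summed to 113, 145, 89.2 and 54.9 CPM, with the T cell marker Cd3e, named after its values were seen, listed at 0 in lean GRf/f muscle, and the endothelial markers to 469, 545, 368 and 333 CPM. Both of these sums had their highest value in lean GRmKO and their lowest in ob/ob GRmKO muscle, as did Txnip and Arrdc4. The intervals of Arrdc4 overlapped between genotypes in each background. The Schwann cell and nerve markers summed to 346, 434, 486 and 422 CPM and the fibroblast markers to 2879, 3036, 5264 and 3107 CPM. Most of the fibroblast sum in ob/ob GRf/f muscle was Col1a1, named after its values were seen, at 4113 CPM there and 1282 CPM in lean GRf/f muscle, while 3 of the 5 fibroblast markers were lower there and their median was -0.30. The shares of all tested genes with the library orders of Arrdc2, Txnip or Arrdc4 were not counted, so the matching orders are a description only. The part of these cell types in the changes of the alpha-arrestins was not tested.

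The tested genes with profiles nearest to Arrdc2, by Euclidean distance over the 4 log2 CPM values centered on each gene's mean, were Fscn2 (0.80), Ackr2 (1.04), Mettl21e (1.06), Odf3l2 (1.30) and Kcnf1 (1.31). Fscn2, an actin-bundling fascin, rested on 31.0, 2, 16.0 and 2 expected counts in the order of groups above, far fewer than Arrdc2. Odf3l2, the best counted of them, was at 39.3, 1.91, 37.1 and 2.63 CPM, so that unlike Arrdc2 it differed little between the GRf/f libraries. Ackr2, a chemokine scavenger receptor, was at 6.58, 0.44, 5.01 and 0.51 CPM, and the potassium channel gene Kcnf1 at 14.5, 2.27, 5.25 and 0.95 CPM. All 5 were lower in both GRmKO libraries, which follows from their choice by nearness to Arrdc2. In the lean and ob/ob GRmKO libraries Ackr2 rested on 8.81 and 10.7 expected counts and Mettl21e on 22.0 and 4.79. The nearest to Txnip were Cep162, Elp4 and Mterf1a (0.01, 0.03 and 0.03), to Arrdc3 Sra1, Exosc5 and Wls (0.03, 0.07 and 0.08), to Arrdc4 Tmx1, Trim25 and Saysd1 (0.02, 0.03 and 0.04), and to Arrdc1 Dclk1, Dtx3l and Plcb4 (0.05, 0.06 and 0.06). No other alpha-arrestin was among the nearest genes of any member. With only 4 points a close profile is a description of these libraries.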

How the data were processed

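RNA was extracted from gastrocnemius muscle, pooled from 3 mice per group and sequenced as paired-end reads. The authors filtered the reads, ran Salmon v1.2.1 against the protein-coding transcripts of GENCODE M20 and used tximport (lengthScaledTPM) in R v3.5.0 to obtain values per gene. The deposited files thus hold expected counts of 22252 gene names, scaled for transcript length by the authors but not between libraries. These totals make 1 count worth about the same in each library, and genes with few counts have wide intervals. Each name carries a transcript ID, and all 22252 were found in GENCODE M21, 21684 under the same name. Groups were taken from the labels.

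Counts were divided by the library total over the 14206 names above 0 in all libraries and given as CPM. Log2 ratios of CPM were computed in Python 3.11.15 with numpy 2.4.6 and pandas 2.3.3, with intervals from counts rounded to whole numbers in scipy 1.17.1. The ratio intervals were checked only on simulated Poisson counts, the model that they assume. With 1 library per group no test was run, and NOISeq, which the study used, was not run because it draws simulated replicates. Genes with a mean of at least 10 expected counts were compared, and 2-fold was the threshold. Alternatives were TMM factors (edgeR 4.0.16) and DESeq2 1.42.0 size factors, used for scaling only in R 4.3.3, totals without the 50 most abundant genes or over all names, unscaled counts, a pseudocount of 0.5 CPM, minimum means of 0 or 50, and 3-fold. Figures were drawn with matplotlib 3.10.9.

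The named genes were the 5 alpha-arrestins, 12 listed partners and factors, every list gene at or past 2-fold between genotypes, and the genes nearest in profile (5 for Arrdc2, 3 for each other). Arrdc5 was added as a further alpha-arrestin. Some further marker genes were named after their values were seen, as stated where they appear. The members and lists were chosen with earlier results of these data known. The values of 1 gene of the lists are not reported here.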

Additional observations from a re-analysis of the deposited data

Results flagged for a closer look

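For Txnip, the log2 change between GRmKO and GRf/f muscle was 0.17 in lean mice and -0.14 in ob/ob mice, so that the 2 backgrounds pointed in opposite directions, with a difference of -0.32 between them. The signs were the same under all 6 other scalings and settings, with values from 0.11 to 0.18 in lean and from -0.15 to -0.10 in ob/ob mice. Both values were nearer to 0 with TMM (0.12 and -0.10) and DESeq2 factors (0.13 and -0.10). The size of the difference therefore depends on the scaling. Arrdc4 also pointed in opposite directions, at 0.04 in lean and -0.27 in ob/ob mice, a difference of -0.30. Its sign in lean mice turned with TMM factors (-0.02), DESeq2 size factors (-0.01) and unscaled counts (-0.02). With 1 library per group, neither difference was tested.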

How the results depend on the processing

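The genotype changes of Arrdc2 ranged from -3.89 to -3.76 in lean and from -3.85 to -3.72 in ob/ob mice over 6 alternatives. In ob/ob against lean GRf/f muscle Arrdc2 was at -0.93 with TMM and -0.92 with DESeq2 factors. In GRmKO muscle it was short of 2-fold in 5 of 6 alternatives, at -0.86 and -0.85 with these factors, -0.98 without the 50 most abundant genes and -0.99 both with unscaled counts and with the pseudocount. Of 96 values of the other 4 genes, 83 stayed within the counting interval and 13 moved beyond it. Over all 5 genes 5 of 120 values changed sign, 3 for Arrdc4 between lean genotypes and 2 for Txnip in GRf/f muscle. The longest annotated transcript is the listed one for all 5 genes, so that alternative changed no length and says nothing of their order. Ranking profiles by Pearson correlation named other genes except 1 for Arrdc1. Counts of genes at least 2-fold lower were 506, 710 and 993 with no minimum mean in the lean and ob/ob genotype and the GRf/f obesity comparison. They were 128, 241, 323 and 745 with a minimum mean of 50, and 98, 137, 229 and 337 at 3-fold, the last value being GRmKO obesity. Counts of higher genes were 586 and 573 for the genotype comparisons and 484 for GRmKO obesity with no minimum mean, then 146, 155, 189 and 168 with a minimum of 50, and 105, 116, 122 and 105 at 3-fold. In the GRmKO obesity comparison TMM gave 748 lower and 487 higher genes, and DESeq2 gave 733 and 499. The number of genes tested and the threshold set these counts by construction, except for the last pair. No paired analysis was possible because each group has 1 library, and no library could be left out for the same reason. Depth limits Arrdc1, with from 69.5 to 123 expected counts per library, more than Txnip.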
